A study of Homo sapiens with 6 samples.

Results

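*HSPA5*, *HSP90B1*, *CALR*, *CANX*, *PDIA3*, *PDIA4*, *PDIA6*, *DNAJB9*, *SDF2L1* and *XBP1* encode chaperones and folding enzymes of the endoplasmic reticulum (ER) and a transcription factor that controls many of them. The 10 genes were taken by exact symbol from the 23285 genes of the deposited table, and all 10 passed the filter on low counts that kept 15876 genes. Their transcripts were measured by RNA sequencing in PC3 cells, a prostate cancer line derived from a bone metastasis. One group of 3 libraries came from cells transfected with a non-specific siRNA and another group of 3 from cells transfected with an siRNA against paxillin, in each case for 72 h. Paxillin (gene *PXN*) is a scaffold at focal adhesions, where cells hold on to the matrix, and the comparison asks which transcripts differ when it is reduced. No other allele, agent or time is named in the labels, which also do not say how many siRNA sequences were used. The labels do not say whether replicates were separate cultures, and p-values therefore reflect the spread among these libraries alone, which may be technical.

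Proteins that enter the ER fold there with the help of BiP (*HSPA5*), an HSP70 chaperone, of GRP94 (*HSP90B1*), and of the lectins calnexin (*CANX*) and calreticulin (*CALR*), which hold glycoproteins while disulfide isomerases such as *PDIA3*, *PDIA4* and *PDIA6* form and rearrange their disulfide bonds. When unfolded proteins accumulate, the sensors IRE1, PERK and ATF6 start the unfolded protein response. IRE1 removes an intron from *XBP1* mRNA so that it encodes an active transcription factor, ATF6 is cut to release another, and both raise transcription of ER chaperones. Prostate epithelium is secretory, and its cells use this system for the glycoproteins they make. Counts per gene sum spliced and unspliced *XBP1* mRNA, so they do not measure IRE1 activity.

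The estimated counts summed to between 25252317 and 30394729 per library. *PXN* checked the labels, since its level was 802 ± 73.3 CPM (counts scaled to library size) with non-specific siRNA and 68.9 ± 19.8 CPM with paxillin siRNA (SD, n = 3), with a log2 fold change of -3.54 ± 0.23 (SE, adjusted p = 0.00613 by edgeR). Leaving out control replicate 1 gave -3.52 (adjusted p = 0.0819) and leaving out control replicate 2 gave -3.5 (0.0762), so the fold stayed as large. Paxillin siRNA replicate 3 stood apart. Its log2 CPM correlated across genes at 0.989 with non-specific siRNA replicate 3 and at 0.977 and 0.975 with paxillin siRNA replicates 1 and 2. It also held the most *PXN* of its group, 91.7 CPM against 59.2 and 55.7 CPM in replicates 1 and 2. The epithelial keratins *KRT8*, *KRT18* and *KRT19* summed to 953 to 975 CPM in the non-specific siRNA libraries and 881 to 943 CPM in the paxillin siRNA libraries. Within that sum *KRT8* lay above control in all 3 paxillin siRNA libraries (log2 fold change 0.33) and *KRT19* below (-0.31), with adjusted p = 0.246 and 0.260. *KLK2* and *KLK3*, kallikreins of luminal prostate epithelium, did not exceed 0.0374 CPM in any library. Marker lists of leukocytes, fibroblasts and endothelium summed to at most 1.48, 3.08 and 6.46 CPM.

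The regulatory sequences that join these genes are shown first, because ATF6 and XBP1 act through them. The ER stress response element (ERSE) consists of CCAAT, any 9 bases and CCACG, in which NF-Y binds the first part and ATF6 or XBP1 the last part. The shorter ERSE-II consists of ATTGG, any 1 base and CCACG. Both were searched on both strands of RefSeq promoter windows (GRCh38.p14, 250 bases before to 50 bases after each start), which held 9 of the 10 genes (not *PDIA3*). ERSE was present for *HSPA5*, *HSP90B1*, *CALR*, *CANX*, *PDIA6* and *XBP1*, that is for 6 of the 9. Across all 35116 windows it was present in 27, or 0.0769%, and these belonged to 25 of 27305 genes. ER chaperones are known targets of ATF6 and XBP1, which act through ERSE, so the members' share describes them and is no independent test. ERSE-II was present for *SDF2L1* and in 0.0541% of all windows. No gene had both motifs. The XBP1-binding motif TGACGTGG, whose complement contains the last 5 bases of ERSE, was in 0.729% of windows and in none of the 9 genes' windows. No match for *PDIA4* and *DNAJB9* means only that these letters are not in their windows.

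The matches are printed 5′ to 3′ on the strand that reads as the motif, with 8 flanking bases on each side and the fixed bases of the motif in capitals.
*HSPA5* (chr9:125241391-125241409, 66 to 48 bases before the start): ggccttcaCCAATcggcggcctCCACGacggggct
*HSP90B1* (chr12:103930216-103930234, 194 to 176 bases before the start): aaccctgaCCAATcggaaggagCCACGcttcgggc
*HSP90B1* (chr12:103930321-103930339, opposite strand, 89 to 71 bases before the start): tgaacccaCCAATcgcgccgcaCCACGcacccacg
*CALR* (chr19:12938384-12938402, opposite strand, 225 to 207 bases before the start): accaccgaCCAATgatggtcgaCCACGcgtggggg
*CANX* (chr5:179698778-179698796, 151 to 133 bases before the nearest listed start): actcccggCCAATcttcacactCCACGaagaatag
*PDIA6* (chr2:10812853-10812871, 86 to 68 bases before the start): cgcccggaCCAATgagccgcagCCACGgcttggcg
*XBP1* (chr22:28800603-28800621, 52 to 34 bases before the start): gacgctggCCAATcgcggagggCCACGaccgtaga
*SDF2L1*, ERSE-II (chr22:21642114-21642124, opposite strand, 188 to 178 bases before the start): gggttttgATTGGtCCACGcttccgag
The 9 central bases of ERSE differed between the genes, and the match of *HSP90B1* occurred once on each strand. The *HSPA5* element is also shown in the 150 bases before that gene's start (minus strand, chr9:125241344-125241493), with a TATA run close to the right end: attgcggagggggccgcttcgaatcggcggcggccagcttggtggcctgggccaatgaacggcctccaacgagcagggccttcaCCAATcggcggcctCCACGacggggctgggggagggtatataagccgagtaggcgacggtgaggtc

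All 10 genes were well expressed in control cells. On a scale corrected for gene length (FPKM, which divides by gene length and library size, non-specific siRNA), they lay between the 85.6th and the 99.7th percentile of the genes tested. Calreticulin was the most abundant at 323 ± 30.4 FPKM (SD, n = 3), and its 3 control libraries did not overlap with those of any other member. GRP94 (148 ± 28.6) and BiP (119 ± 36.3) followed, then *PDIA3* (80.9 ± 16.3), *PDIA6* (71.9 ± 9.85), *CANX* (71.8 ± 20.4) and *PDIA4* (51.3 ± 6.73 FPKM). Each neighbour in that row from GRP94 to *PDIA4* overlapped with the next over the 3 control libraries. *XBP1* (24.5 ± 5.47 FPKM) lay below *PDIA4* with no overlap, and overlapped in turn with *SDF2L1* (17.9 ± 1.17), which overlapped with *DNAJB9* (12.9 ± 5.64 FPKM). The places of *HSP90B1* and *PDIA3* are uncertain. The table also lists the pseudogenes *HSP90B3P* and *PDIA3P*, at 199 ± 39.7 and 180 ± 34.8 FPKM in the same libraries, and reads of such near-identical copies may have been divided between parent and copy.

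With paxillin siRNA the fitted level of all 10 genes was lower, by amounts between 1.10-fold for *XBP1* and 1.45-fold for *HSPA5*, and none passed the test over all genes (edgeR, smallest adjusted p = 0.126, for *SDF2L1*). In that test 1.18% of the 15876 genes were called, 0.882% higher and 0.302% lower. At an unadjusted p under 0.05 there was 1 member, *SDF2L1*, against 22.5% of all genes. The median log2 fold change of the 10 genes was -0.22, beside 0.00178 for all genes tested. Leaving out 1 library moved it to -0.392 (control replicate 2), -0.145 (control replicate 3), -0.0941 (paxillin siRNA replicate 2) or -0.378 (paxillin siRNA replicate 3). With the replicate number as a block in the fit, *SDF2L1* was called lower and the other 9 were not, where 22.4% of all genes were called, 10.7% lower and 11.7% higher. DESeq2 and limma-voom also called 0 members, where they called 10.7% (5.43% lower) and 0.926% (0.227% lower) of the genes they tested. A share of 1 in 10 is thus near the background. In bulk RNA, fewer cells that express a gene and less of its RNA per cell cannot be told apart.

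**Figure D1:**
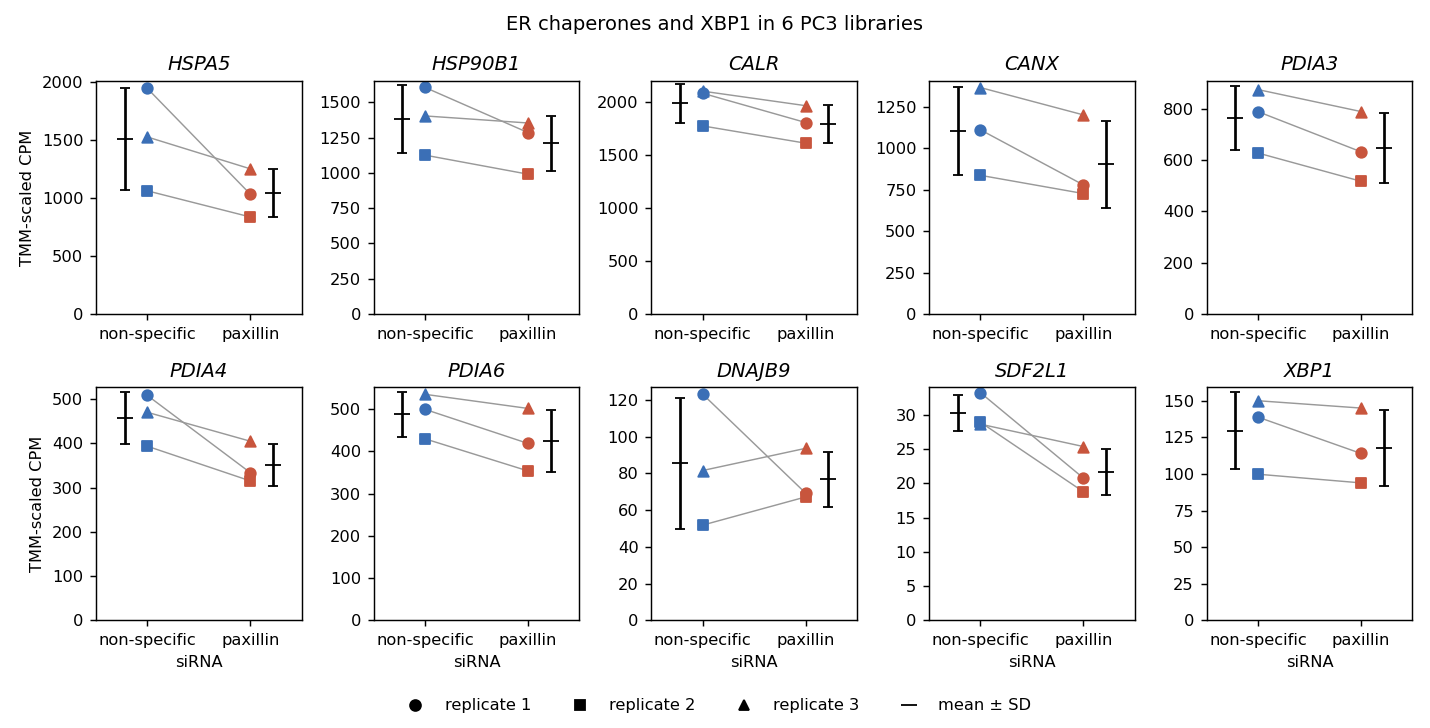
TMM-scaled CPM (vertical axis, from 0) of each gene in the 3 non-specific siRNA libraries (blue) and the 3 paxillin siRNA libraries (red), with a line joining libraries of the same replicate number and black bars for mean ± SD. Only for *SDF2L1* do all 3 paxillin siRNA libraries lie below all 3 control libraries.

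BiP, the central HSP70 chaperone of the ER, had the largest fitted difference over all 6 libraries. *HSPA5* (hg19, chr9:127997127-128003666) was at 1947, 1063 and 1528 CPM in control replicates 1 to 3 and at 1034, 837 and 1253 CPM in the paxillin siRNA libraries of the same numbers. The groups overlapped, since paxillin siRNA replicate 3 was above control replicate 2. The fitted level with paxillin siRNA was 68.8% of control, with a 95% interval of 45.7% to 104% (log2 fold change -0.54 ± 0.26 SE, adjusted p = 0.261). With the replicate block the log2 fold change was -0.51 ± 0.18 and the adjusted p 0.0575. Between libraries of the same number the level was 53.1%, 78.7% and 82.0% of control, so pair 1 held the widest gap. Without control replicate 1 the log2 fold change was -0.33, which was smaller than that of *SDF2L1* (-0.42), and *SDF2L1* also had the larger one in the blocked fits without pair 1 or pair 3.

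*DNAJB9* and *SDF2L1* encode smaller ER proteins that work with BiP, the first a J-domain cochaperone that also restrains IRE1. *DNAJB9* (chr7:108210189-108215294) was at 123, 51.8 and 81.5 CPM in control replicates 1 to 3 and at 69.2, 67.1 and 93.6 CPM in paxillin siRNA replicates 1 to 3. It was the only member without the same direction in all pairs, being at 56.2% of control in pair 1 and at 130% and 115% in pairs 2 and 3 (log2 fold change -0.16 ± 0.29 SE, adjusted p = 0.789). Its fitted difference turned to 0.19 without non-specific siRNA replicate 1, the library with the highest value. *SDF2L1* (chr22:21996542-21998588), an ER-resident partner of such J proteins, was at 33.2, 28.9 and 28.6 CPM in control libraries and at 20.8, 18.8 and 25.4 CPM in paxillin siRNA libraries. Here the groups did not overlap, as for 28.3% of all genes tested, 14.7% with paxillin siRNA below and 13.6% with it above. The fitted level was 71.5% of control, with an interval of 56.0% to 91.3% (log2 fold change -0.48 ± 0.15 SE). Its adjusted p was 0.126 without the block and 0.0234 with it. By exact permutation (two-sided) p was 0.1, and 3 against 3 libraries cannot give less. Without paxillin siRNA replicate 3 the adjusted p without the block was 0.0322, in a fit that called 15.1% of all genes, 7.88% lower. With any other single library left out it was 0.197 to 0.397. With the block it was 0.234 without pair 1, 0.134 without pair 2 and 0.00261 without pair 3.

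GRP94, the HSP90 of the ER, and the 2 lectins showed small differences. *HSP90B1* (chr12:104324189-104341703) was at 1606, 1126 and 1404 CPM in control replicates 1 to 3 and at 1286, 991 and 1354 CPM in paxillin siRNA replicates 1 to 3, at 87.8% of control (interval 63.6% to 121%, adjusted p = 0.615 by edgeR). Its pseudogene *HSP90B3P* had a log2 fold change of -0.17 against -0.19, and with the counts of both added the value was -0.18 (adjusted p = 0.636). *CALR* (chr19:13049414-13055304) was at 2082, 1774 and 2102 CPM and at 1806, 1611 and 1965 CPM. At 90.3% of control its interval ran from 69.0% to 118% (adjusted p = 0.641). *CANX* (chr5:179125930-179158639) was at 1112, 837 and 1367 CPM and at 779, 727 and 1202 CPM, which is 81.7% of control (interval 54.1% to 123%, adjusted p = 0.536). For these genes the range over the control libraries exceeded the difference between the group means.

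Among the disulfide isomerases *PDIA4* had the widest gap. It (chr7:148700154-148725782) was at 508, 393 and 470 CPM in control replicates 1 to 3 and at 334, 315 and 404 CPM in paxillin siRNA replicates 1 to 3. Only paxillin siRNA replicate 3 reached above the lowest control library. The fitted level was 76.8% of control (interval 59.0% to 100%, log2 fold change -0.38 ± 0.17 SE), with an adjusted p of 0.223 without and 0.0743 with the replicate block. *PDIA6* (chr2:10861775-10952960), which also acts on IRE1 and PERK, was at 499, 430 and 535 CPM and at 419, 354 and 502 CPM. *PDIA3* (chr15:44038590-44094769), the isomerase that binds calnexin and calreticulin, was at 788, 627 and 874 CPM and at 632, 517 and 789 CPM. Their fitted levels were 87.0% and 84.6% of control (adjusted p = 0.529 and 0.523). Adding the counts of *PDIA3P*, which alone had a log2 fold change of -0.26, moved *PDIA3* from -0.24 to -0.25. The loci listed for *PDIA3* and *PDIA6* overlap those of other genes, among them *SERF2* and *ATP6V1C2*, and whether counting used strand is not stated.

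*XBP1* (chr22:29190548-29196560) had a difference of -0.14 in log2, close to that of *CALR* (-0.15), and with the block *DNAJB9* had a smaller one (-0.08). *XBP1* was at 139, 99.8 and 150 CPM in control replicates 1 to 3 and at 114, 93.9 and 145 CPM in paxillin siRNA replicates 1 to 3. The order of the replicates was the same in both groups, with replicate 2 lowest and replicate 3 highest. The fitted level was 90.8% of control (interval 64.9% to 127%, log2 fold change -0.14 ± 0.21 SE), with an adjusted p of 0.728 without and 0.428 with the replicate block. Leaving out 1 paxillin siRNA library moved its log2 fold change to -0.32 (replicate 3) or -0.000691 (replicate 2).

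**Figure D2:**
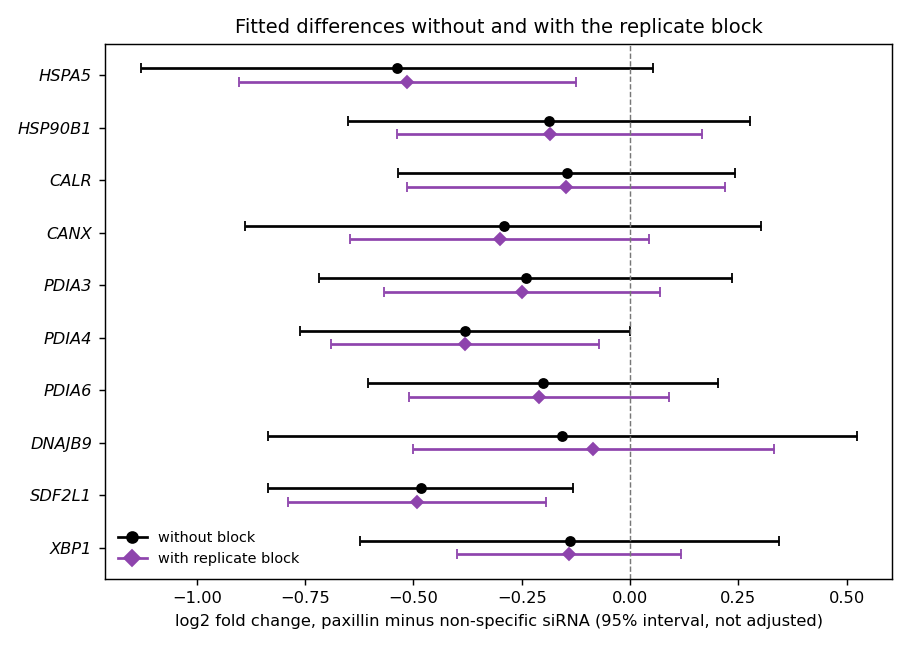
Fitted log2 fold change (horizontal axis, paxillin minus non-specific siRNA) of each gene with its unadjusted 95% interval, without the replicate block (black circles) and with it (purple diamonds). Without the block only the interval of *SDF2L1* lies wholly below 0, and with the block those of *HSPA5*, *PDIA4* and *SDF2L1* do.

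Compared between libraries of the same replicate number, 9 of the 10 genes were lower with paxillin siRNA in all 3 pairs, which held for 28.7% of all genes tested, while 29.2% were higher in all 3. *DNAJB9* was the exception. The median log2 ratio of the 10 genes was -0.42 in pair 1, -0.24 in pair 2 and -0.12 in pair 3. Pair 1 gave the lowest ratio for 9 of the 10 genes, all but *PDIA6*, and pair 3 the highest ratio for 9 of the 10, all but *DNAJB9*. The members thus moved together from pair to pair, and the size of the difference depended on the pair. This order was not particular to them, since the genes of ER-associated degradation described below had medians of -0.42, -0.19 and -0.10. The share of all genes with this order was not counted. *PXN* itself was at 7.09%, 6.52% and 12.8% of control in pairs 1, 2 and 3, and its part in this was not tested. With the replicate block and without the replicate 3 libraries, *HSPA5* (adjusted p = 0.0196), *PDIA4* (0.0378) and *SDF2L1* (0.00261) were called lower by edgeR, where 30.6% of all genes were called, 14.5% lower. Without the replicate 1 libraries 0 members and 2.85% of all genes (1.09% lower) were called, and without the replicate 2 libraries 0 members and 8.39% of all genes (4.1% lower).

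**Figure D3:**
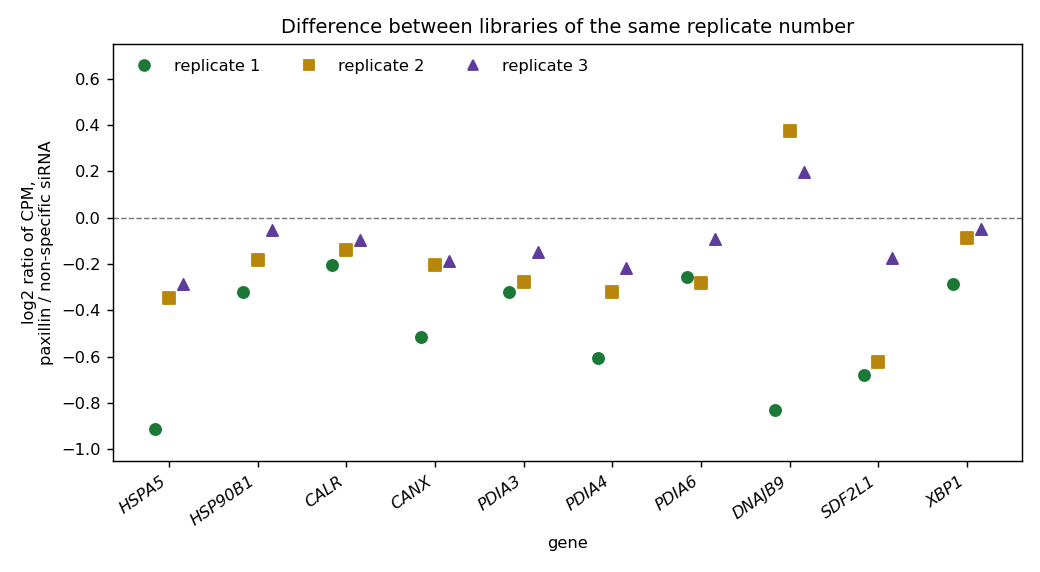
Log2 ratio of CPM, paxillin over non-specific siRNA, between libraries of replicate number 1 (green circles), 2 (yellow squares) and 3 (purple triangles) for each gene. Points below the dashed line are lower with paxillin siRNA, and *DNAJB9* alone has points above it, in pairs 2 and 3.

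The summed level of the 10 genes varied more between control libraries than between the group means. The 10 genes together took 0.878%, 0.640% and 0.813% of the estimated counts in non-specific siRNA replicates 1, 2 and 3 and 0.678%, 0.580% and 0.747% in paxillin siRNA replicates 1, 2 and 3. Their summed level was 7936 ± 1310 CPM in control and 6586 ± 1100 CPM with paxillin siRNA (SD, n = 3). Within the paxillin siRNA group replicate 3 was highest and replicate 2 lowest for all 10 genes. Over all genes tested, replicate 3 of that group was highest for 44.1% and replicate 2 lowest for 30.8%. In the control group replicate 2 was lowest for 9 of the 10, all but *SDF2L1*, against 35.2% of all genes. Depth also differed with the replicate number, at 33600000, 30300000 and 22100000 reads in control replicates 1 to 3, while the paxillin siRNA libraries held 31000000, 29600000 and 22700000, and its part in the result was not tested.

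Across the 6 libraries the members' log2 CPM followed each other. The 45 pairwise Pearson correlations ran from 0.445 to 0.995 with a median of 0.859, while the median correlation of a member with all genes of at least 10 CPM was 0.112. These values describe 6 points that share libraries and groups. *PDIA3* and *PDIA6* were the closest pair at 0.995, and *CALR* correlated with *PDIA3* at 0.982. *XBP1* was closest to *PDIA3* (0.965), *CALR* (0.947) and *CANX* (0.944) and farthest from *SDF2L1* (0.577). *SDF2L1* was closest to *PDIA4* (0.941) and *HSPA5* (0.859). The lowest value, 0.445, was that of *DNAJB9* with *SDF2L1*.

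Among 10711 genes with a mean of at least 10 CPM, the 5 whose pattern over the 6 libraries was most like that of *HSPA5* were *SP2* (Pearson r = 0.993), *MIR210HG* (0.989), *ASNS* (0.988), *LOC442421* (0.988) and *CDK13* (0.988). *ASNS*, which encodes asparagine synthetase and is a known ATF4 target, was at 84.2 and 59.9 CPM in the 2 groups (log2 fold change -0.49, adjusted p = 0.190 without and 0.0265 with the replicate block). *MIR210HG* and *LOC442421* were also called with the block only (adjusted p = 0.2587 and 0.2129 without and 0.01225 and 0.03879 with it). For *XBP1* the 5 genes were *SLC1A4* (0.994), *LINC00263* (0.993), *SRD5A3* (0.992), *PRR16* (0.991) and *MYO1D* (0.988). Of these only *LINC00263* was called with the block (adjusted p = 0.621 without and 0.018 with it).

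The rest of the ER folding system was described with lists of its working parts. With the block 10.7% of all genes were called lower and 11.7% higher, and the counts with the block are to be read beside these shares. Of 10 BiP cofactors (J proteins, exchange factors and small ER folding factors), 0 were called without the block and 2 were lower with it. *HYOU1*, a large HSP70 that exchanges nucleotide on BiP, was at 444 ± 104 and 265 ± 56.6 CPM (log2 fold change -0.75 ± 0.22 SE, adjusted p = 0.116). *MANF*, a small secreted ER stress protein, was at 190 ± 39.4 and 104 ± 31.9 CPM (-0.87 ± 0.24, adjusted p = 0.104). Both fell with the replicate block (adjusted p = 0.00928 and 0.0041). The median of the list was -0.13. Without paxillin siRNA replicate 3 and without the block their adjusted p was 0.0272 and 0.0167. That fit called 15.1% of all genes, 7.88% lower. With any other single library left out it was 0.147 to 0.384 for *HYOU1* and 0.143 to 0.338 for *MANF*. In the blocked fits both were called without pair 2 or pair 3, but not without pair 1 (0.165 and 0.0935).

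Of 16 other ER oxidoreductases tested, 0 were called without the block, and 1 was lower and 1 higher with it, at a median of -0.10. *P4HB*, the founding protein disulfide isomerase and the most abundant of the list, was at 1469 ± 305 and 1243 ± 261 CPM (adjusted p = 0.571). The oxidase *ERO1L*, which feeds oxidizing equivalents to it, was at 183 ± 49.4 and 129 ± 44.0 CPM and fell with the block (adjusted p = 0.328 without and 0.0292 with it). Of 10 genes of the glucose-trimming and lectin cycle around calnexin, 0 were called without the block, and 2 were lower and 1 higher with it (median -0.22). *GANAB*, the catalytic subunit of glucosidase II, was at 769 ± 131 and 663 ± 115 CPM (adjusted p = 0.543). *MCFD2*, which with the lectin *LMAN1* carries clotting factors out of the ER, had the largest difference of all the lists, at 318 ± 26.9 and 130 ± 64.4 CPM (log2 fold change -1.30 ± 0.31 SE). It fell with the block (adjusted p = 0.0818 without and 0.000465 with it). Without paxillin siRNA replicate 3 its log2 fold change was -1.79, with an adjusted p of 0.00288, in a fit that called 15.1% of all genes. With any other single library left out the adjusted p of *MCFD2* was 0.141 to 0.284.

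The 8 prolyl isomerases of the ER had a median of 0.09, with 0 called without the block, and 2 higher and 1 lower with it. *PPIC*, cyclophilin C, was at 33.2 ± 0.94 and 55.6 ± 8.62 CPM, a log2 fold change of 0.74 ± 0.14 (SE), and rose with the block (adjusted p = 0.0528 without and 0.00277 with it). *PPIB*, cyclophilin B, was at 311 ± 48.1 and 264 ± 40.2 CPM (adjusted p = 0.462). The folding enzymes of the ER thus did not all differ in 1 direction.

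In ER-associated degradation, which returns misfolded proteins to the cytosol for the proteasome, 1 of 19 genes tested was called without the block and 4 were lower with it, at a median of -0.25. The gene called was *UBE2G2*, the ubiquitin-conjugating enzyme of this pathway, which fell from 220.5 ± 17.9 to 126 ± 17.0 CPM (log2 fold change -0.81 ± 0.15 SE, adjusted p = 0.0495, and 0.00227 with the block). Its adjusted p was 0.0511 by limma-voom, 0.0516 to 0.122 by limma on FPKM and between 0.1 and 0.205 without any library other than paxillin siRNA replicate 3.

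Protein entry into the ER, glycan transfer and exit were described by 3 lists. Of 17 translocon genes 0 were called without the block, and 4 were lower and 1 higher with it, that is 29.4% beside 22.4% of all genes (median -0.17). *SSR1*, a subunit of the translocon-associated complex, was at 299 ± 43.1 and 175 ± 75.7 CPM and fell with the block (adjusted p = 0.168 without and 0.00321 with it). Without paxillin siRNA replicate 3 its log2 fold change was -1.19 against -0.77. *SRPR*, the receptor of the signal recognition particle, had the list's highest mean CPM over both groups, at 463 ± 75.8 and 590 ± 61.5 CPM (adjusted p = 0.272). In the control libraries *TRAM1* (617 CPM) and *SEC61A1* (551 CPM) had higher means. Of 10 oligosaccharyltransferase subunits, 0 were called without the block and 1 was lower with it, namely *OSTC*, at 79.8 ± 7.34 and 55.1 ± 11.6 CPM (adjusted p = 0.127 without and 0.0115 with it). *RPN2* was at 475 ± 75.6 and 477 ± 68.0 CPM (adjusted p = 0.988). None of the 12 genes of the COPII coat, which buds vesicles from the ER, was called in either fit. *SEC13* there was at 154 ± 18.7 and 120 ± 14 CPM and *SEC24C* at 718 ± 47.9 and 714 ± 37.0 CPM (adjusted p = 0.209 and 0.977).

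Of the 10 sensors and ATF6-like factors, 0 were called without the block and 2 were lower with it, while the median was 0.10. *EIF2AK3*, which encodes the sensor kinase PERK, was at 49.8 ± 11.4 and 35.9 ± 9.11 CPM and fell with the block (adjusted p = 0.275 without and 0.0196 with it). *MBTPS1*, the first protease that cuts ATF6, was at 134 ± 15.8 and 135 ± 14.4 CPM (adjusted p = 0.980). The sensor genes *ATF6* and *ERN1*, which encodes IRE1, were chosen for mention after their values were seen. *ATF6* was at 101 ± 19 CPM in control and 83.8 ± 13.4 CPM with paxillin siRNA (adjusted p = 0.416), and *ERN1* at 21.9 ± 7.66 and 22.5 ± 5.53 CPM (adjusted p = 0.955). Of 8 genes of the PERK and ATF4 arm, 0 were called without the block and 4 (50%) were lower with it, beside 10.7% of all genes, at a median of -0.40. *ATF4* itself was at 302 ± 40.1 and 221 ± 12.7 CPM and *CHAC1*, a glutathione-degrading target of it, at 40.6 ± 15.4 and 21.6 ± 4.65 CPM. Adjusted p-values were 0.129 for *ATF4* and 0.124 for *CHAC1* without the block, and 0.0272 and 0.00259 with it. The other 2 of the 4 were *TRIB3*, with an adjusted p of 0.163 without and 0.023 with the block, and *SESN2*, with 0.149 and 0.0238. In the blocked fits 0 of the list were called without pair 1 and 4 without pair 2 or pair 3, beside 2.85%, 8.39% and 30.6% of all genes. Control replicate 1 was the highest control library for *TRIB3* (357 against 190.5 and 221 CPM) and *SESN2* (82.9 against 38.2 and 38.8 CPM). Of the rest, *PPP1R15A* was higher in all 3 pairs (log2 fold change 0.28). *DDIT3* (-0.14) and *ATF3* (-0.35) were higher in pair 2 alone, and *ATF5* was at -0.19.

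Of 26 cytosolic and mitochondrial chaperone genes 0 were called without the block and 6 (23.1%) were lower with it. Their median was -0.21, beside -0.22 for the 10 ER genes, but the pairs differed. The median log2 ratio in pairs 1, 2 and 3 was -0.14, -0.51 and -0.10 for this list. Pair 2 thus held the widest gap, and not pair 1 as for the 10 ER genes. Control replicate 2 was the highest control library for every gene of this list but *HSPA1A*, *HSPA1B* and *BAG3*. *HSP90AA1* was at 1944 CPM in it, against 1203 and 1273 CPM in control replicates 1 and 3. The part of that library in the gap was not tested. In 9 of the 26 genes all paxillin siRNA libraries lay below all control libraries, against 1 of the 10 ER genes and 14.7% of all genes. *HSP90AA1*, the inducible cytosolic HSP90, was at 1473 ± 409 and 889 ± 161 CPM and fell with the block (adjusted p = 0.134 without and 0.0197 with it). *HSP90AB1*, the constitutive form, was at 1483 ± 278 and 1198 ± 175 CPM (adjusted p = 0.396). No difference between the ER list and the cytosolic list was tested.

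**Figure D4:**
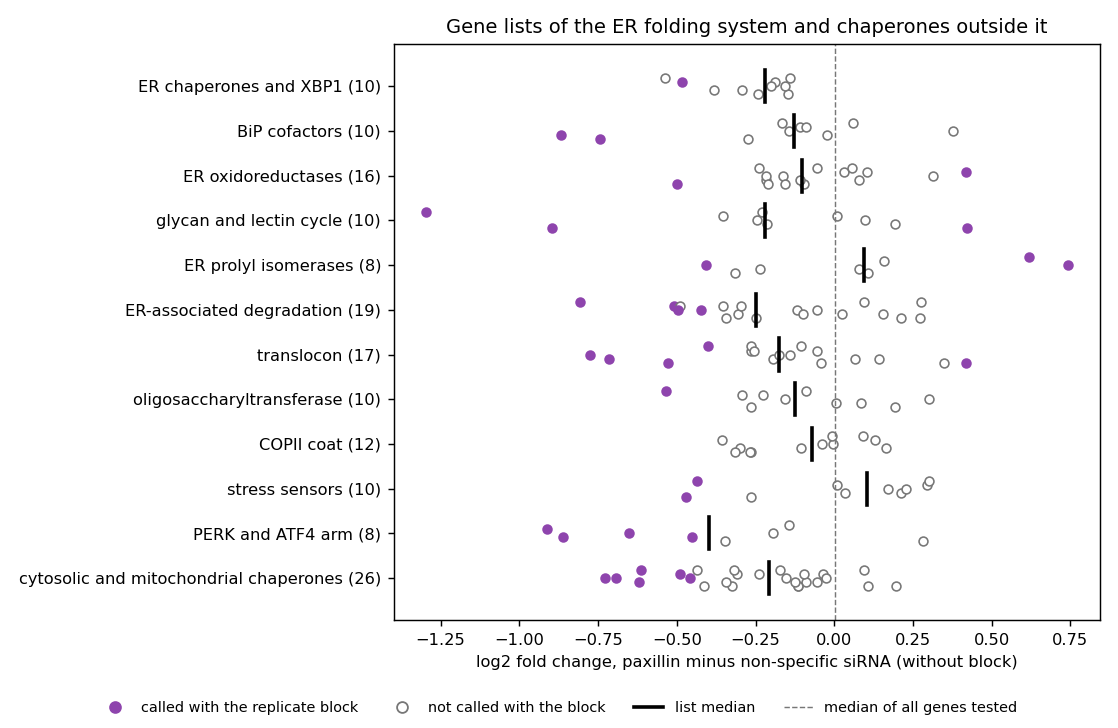
Log2 fold change (horizontal axis, fit without the block) of each gene tested in the 12 lists, with the number tested in brackets, black bars for list medians and filled points for genes called with the replicate block. The 10 ER chaperones and *XBP1* all lie left of 0, between -0.54 and -0.14, with 1 filled point, while other lists spread more widely to both sides.

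The promoter elements offered a grouping that does not rest on the expression values. Of the 20 genes in the count table whose promoter windows hold ERSE, 17 were tested, 0 were called without the block, and 0 were lower and 3 higher with it. The median log2 fold change was -0.18. Outside the 6 members, 11 genes remained, of which 6 had a negative value and 5 a positive one. Those 11 included *CRELD2*, an ER folding factor (-0.28), *SERP1*, which stabilizes proteins at the translocon (-0.18), *ALG12*, a mannosyltransferase of glycan assembly (-0.20), and *FICD*, the enzyme that modifies BiP (-0.58), with adjusted p = 0.341, 0.613, 0.454 and 0.239. *FRG2* and *FRG2C*, near-identical genes whose reads may be shared, had the highest values at 1.11 and 1.06. *FRG2* was called with the block (adjusted p = 0.16 without and 0.047 with it). Both were low, with control and paxillin siRNA means of 0.435 and 0.947 CPM for *FRG2* and 0.436 and 0.909 CPM for *FRG2C*. *SYNPO* (0.45, 28.0 and 38.4 CPM) and *TMEM120A* (0.51, 15.6 and 22.2 CPM) were also higher with the block. Their adjusted p was 0.39 and 0.105 without it and 0.0264 and 0.0242 with it.

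Of the 14 tested genes with ERSE-II, 0 were called without the block, and 5 were lower and 2 higher with it, at a median of -0.38, beside the same shares of all genes. A negative value was found for 10 of the 14, and *NUCB1* was among the others (0.31, adjusted p = 0.281 without and 0.0838 with the block). Those in the ER lists were *SDF2L1*, *HYOU1* (-0.75) and *HERPUD1*, a membrane component of ER-associated degradation (-0.49, adjusted p = 0.290 without and 0.0644 with the block). *HYOU1* holds the element at 2 places, and 1 of them overlaps a match to TGACGTGG. Their elements are printed here beside that of *SDF2L1* given above.
*HYOU1* (chr11:119057274-119057284, opposite strand, 79 to 69 bases before the start): gcgtactcATTGGaCCACGtcccaggc
*HYOU1* (chr11:119057380-119057390, opposite strand, 185 to 175 bases before the start): ggcctgggATTGGaCCACGtcacgggg
*HERPUD1* (chr16:56932025-56932035, 117 to 107 bases before the start): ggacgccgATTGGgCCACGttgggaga
The lowest values among genes with ERSE-II belonged to *SHCBP1* and *PLS3* (-1.42 and -1.0) and the highest to *RAD9A* and *CNKSR1* (0.88 and 0.87). These 4 genes are in none of the lists and were picked out after their values were seen. All 4 were called with the block, with adjusted p = 0.00283, 0.00193, 0.0192 and 0.0123, and without it the values were 0.0818, 0.0858, 0.309 and 0.134. A match to these letters is a description of the sequence, and binding was not measured.

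**Figure D5:**
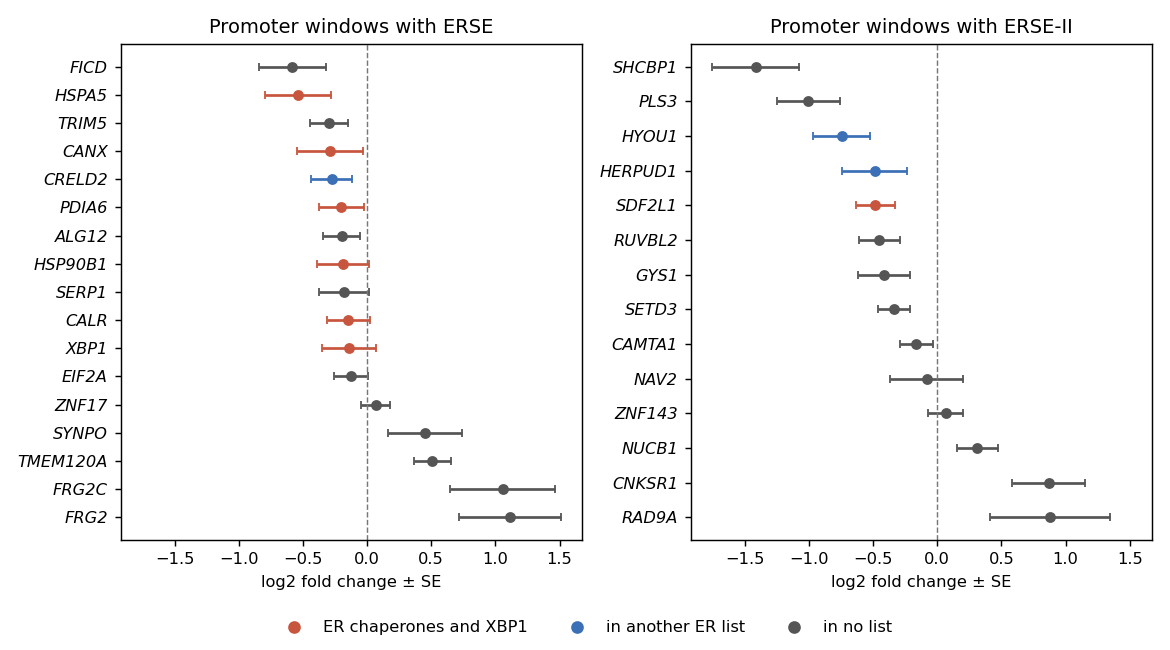
Log2 fold change ± SE (horizontal axis, fit without the block) of the tested genes whose RefSeq promoter windows hold ERSE (left) or ERSE-II (right), with members in red, genes of other ER lists in blue and all other genes in grey. The 6 members with ERSE lie between -0.54 and -0.14, and genes outside the lists reach 1.11, the value of *FRG2* (group means of 0.435 and 0.947 CPM).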

How the data were processed

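The deposited values are estimated counts of fragments per gene and FPKM, each with a column for every library. Per the submitters' processing notes, Cufflinks 2.0.2 and FastQC 0.10.1 were run and the build was hg19. No source used here gives the aligner, the annotation or whether strand was used. FPKM served for levels between genes and in alternatives, and 12 columns of confidence bounds were not used. Each library's estimated counts were multiples of 1 step, 0.826 to 1.37 per read, which was found from values under 20, of which 95.1% to 95.8% were whole within 0.05 of a step. Divided by it the libraries held 22100000 to 33600000 reads, and 3 reads, the most that a value of 0 allows, equal 0.0898 to 0.142 CPM, a limit that covers counting error only.

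After rounding, the counts were fitted by edgeR 4.0.16 under R 4.3.3 (TMM, filterByExpr, quasi-likelihood test, two-sided, group as the only term, Benjamini-Hochberg over 15876 genes, threshold 0.05). Levels are TMM-scaled CPM. The SE is the log2 fold change divided by the square root of F, and 95% intervals use the test's degrees of freedom. The fit was tested on simulated data with changes planted in well expressed genes. Without the block (15716 genes) 70% of 2-fold and 100% of 4-fold changes were found and 9.57% of calls were false. With the block (15617 genes) the figures were 100%, 100% and 7.41%. Both shares of false calls exceeded the share that the threshold of 0.05 aims at. The libraries simulated without the block shared no deviation by replicate number, unlike the real ones. Changes as small as those fitted for the members, 1.10-fold to 1.45-fold, were not planted, so how many of these would be found is not known.

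Same-numbered libraries deviated together from their group means (correlation across genes 0.372, 0.467 and 0.602 for numbers 1, 2 and 3), so the numbers were taken to pair the libraries. The labels give the numbers without saying what they stand for. Values with the replicate block are printed where they change a call. No 2 libraries of a group agreed within sampling noise (chi-square per degree of freedom at least 30.8).

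The members and the lists were chosen with earlier results of these data known. All 176 listed symbols were found. Named genes are all members and, from each other list, those called or else the gene with the highest mean CPM and that with the largest absolute log2 fold change. Outside this rule, every gene of the PERK and ATF4 arm is named. Genes with promoter elements were found by their sequence, and which of them are named was chosen in part by function or value. Loci are hg19 with starts raised by 1, since 1899 loci then equal a RefSeq gene length against 253 otherwise. Promoter sequences are RefSeq's (GRCh38.p14). Alternatives were RLE factors, no filter, DESeq2 1.42.0, limma 3.58.1 (voom, and log2(FPKM + 1) or log2(FPKM + 0.1) with a minimum mean FPKM of 1 or none), counts divided by the step, the block, left-out libraries and pairs, and, chosen after seeing the data, pseudogene counts added to their parents.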

Additional observations from a re-analysis of the deposited data

How the results depend on the processing

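The count of all genes called, 188 in all, was 303 with no low-count filter, 1595 by DESeq2, 33 by limma on log2(FPKM + 1), 63 on log2(FPKM + 0.1), 0 on log2(FPKM + 1) with no filter (3968 genes at an unadjusted p under 0.05) and 3561 with the replicate block, also with pseudogene counts added. With a single library left out it ran from 0 to 2440, the highest without paxillin siRNA replicate 3, and with the replicate block and a pair left out it was 455, 1336 and 4885 without pairs 1, 2 and 3. The cause was not tested, though these fits had fewer libraries. At 0 calls, 2633 genes (without non-specific siRNA replicate 1) and 3005 (without its replicate 2) had an unadjusted p under 0.05. The count of members called was 1 with the replicate block, also with pseudogene counts added, 0 to 1 with a library left out and 0 to 3 with a pair left out of the blocked fit. With RLE factors, no filter, DESeq2, limma-voom, FPKM or counts divided by the step it stayed at 0. The median log2 fold change of the 10 genes was negative in every alternative run, from -0.392 without non-specific siRNA replicate 2 to -0.0941 without paxillin siRNA replicate 2, and it was -0.378 without paxillin siRNA replicate 3. *DNAJB9* ran from -0.418 to 0.188 with a library left out and was at 0.278 with the replicate block and without pair 1. All other members kept their sign in each alternative. Differences near 0 changed sign elsewhere. *RPN2* was at -0.00314 with no filter, at -0.0618 and -0.0628 by limma on log2(FPKM + 1), with and without a filter, and log2(FPKM + 0.1), at -0.0629 with the replicate block without pair 1, and from -0.116 to 0.151 with a library left out. *MBTPS1* was at -0.00128 with no filter, at -0.0579 and -0.0633 in the same FPKM fits, at -0.0163 with the replicate block without pair 2, and from -0.0875 to 0.115 with a library left out. *SEC24C* was at 0.0142 and 0.0064 with the replicate block without pairs 1 and 3, and from -0.0364 to 0.037 with a library left out. Pairing changed the call of 1 member, *SDF2L1*. No member was near the counting floor, since the lowest member level was 18.8 CPM, against at most 0.142 CPM for 3 reads. The part of the depth difference between replicate numbers was not tested.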
